A study of Mus musculus with 31 samples.

Results

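The 50 genes described here encode proteins of mitosis and the spindle, named in a list of 50 symbols. Each was read from the row of the deposited table that carries its symbol alone, and for the 1 member with several such rows the row with the highest mean over the 31 arrays was taken. All 50 were measured, of 19938 genes with a row of their own. The study followed mouse embryonic fibroblasts (MEFs, primary connective tissue cells of the embryo) infected on day 0 with retroviruses, and asked how expression changes while such cells are reprogrammed. The 4F cells received Oct4, Sox2, Klf4 and c-Myc, the 3F cells received Oct4, Sox2 and Klf4 without c-Myc, and the control cells received a virus encoding GFP. RNA was hybridised to Affymetrix whole-transcript arrays, and every value below is a log2 signal or a difference of log2 signals.

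The 2 day 0 arrays held uninfected MEFs, although their titles place them in the 4F series. The 4F cells had 2 arrays on each of days 1, 2, 3, 4, 5, 6 and 8 and 1 array on each of days 10 and 12. The GFP cells had 2 arrays on days 1, 3, 5 and 8 and 1 on day 12, and the 3F cells had 1 array on each of days 3, 5, 8 and 12. The labels name no mouse strain, no embryo age and no sorting of infected cells, and a source line of the 3F arrays speaks of 4 factors while naming only the 3. The labels call the numbered arrays biological replicates without saying whether they came from separate embryos or separate infections, so the p-values measure the spread between these arrays. Replicate 1 (12 arrays) was labelled from 120 ng of RNA, and all other arrays from 300 ng. In such bulk samples, fewer dividing cells and less RNA of these genes per cell cannot be told apart.

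As background, a cell enters mitosis when cyclin B and Cdk1 are switched on, condenses its chromosomes, attaches them through kinetochores to the spindle, and holds the anaphase-promoting complex in check until all are attached. Many of the genes for these steps are transcribed mainly as cells approach mitosis, under B-Myb (Mybl2), Foxm1 and the MuvB complex, so their RNA is abundant in cycling cells and low in resting ones. MEFs divide freely in early passages and slow down as they become crowded or senescent, and c-Myc is known as a driver of cell-cycle entry.

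The mitotic genes are also known for a shared promoter element, the cell cycle genes homology region (CHR), which lies close to the transcription start and often follows CCAAT boxes. RefSeq promoters of build GRCm38.p6, running from 250 bases before to 50 bases after each start, were available for 42 of the 50 members, with 47 starts in all because 4 genes have several, whose windows overlap in Ect2, Prc1 and Bub3 but not in Cenpk. The letters TTTGAA or TTCGAA (CHR), CCAAT, an E2F set (TTCCCGC or TTCGCGC or TTGCCGC or TTGGCGC) and the E-box CACGTG bound by Myc proteins were searched on both strands, and 3 matches of different motifs overlapped. A CHR match was present in 34 of the 47 member promoters (72.3%) and in 19.2% of all 32851 promoters, and CCAAT was present in 74.5% and 37.4%. Both occurred together in 63.8% of the member promoters and 7.52% of all. A CHR match between 50 bases before and 50 after the start was found in 63.8% of member promoters and 5.31% of all. The E2F letters were found in 17% of member promoters and 9.57% of all, and the E-box in 6.38% and 7.15%. A match describes letters in this window and is not evidence of binding.

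Promoters of 4 members are printed 5′ to 3′ on the strand of the gene, with matched letters in capitals: a cyclin with both elements, the checkpoint kinase with the TTCGAA form, a cytokinesis gene that fell in GFP cells, and the transcription factor that rose in 4F cells. Positions count the start as 1 and the base before it as -1. Ccnb2 (chr9:70421505-70421804, minus strand) has CHR matches at 5 to 10 and -167 to -162 and CCAAT at -87, -54 and -21. Bub1 (chr2:127831810-127832109, minus strand) has a CHR match at 15 to 20 and CCAAT on either strand at -68 and -42. Anln (chr9:22389157-22389456, minus strand) has CHR matches at 22 to 27 and 29 to 34 and an E-box at -65 to -60. Mybl2 (chr2:163054385-163054684, plus strand) has no match of the 4 kinds. Its window does hold ttggcgg, which differs from the searched E2F letters TTGGCGC only in the last base. The search used fixed letters, so a missing match does not show that a site is absent.
Ccnb2: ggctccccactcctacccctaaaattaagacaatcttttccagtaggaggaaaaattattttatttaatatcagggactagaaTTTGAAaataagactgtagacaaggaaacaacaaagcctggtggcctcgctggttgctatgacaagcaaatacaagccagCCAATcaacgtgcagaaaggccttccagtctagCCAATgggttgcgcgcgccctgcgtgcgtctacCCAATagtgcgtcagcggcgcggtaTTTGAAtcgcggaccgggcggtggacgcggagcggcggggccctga
Bub1: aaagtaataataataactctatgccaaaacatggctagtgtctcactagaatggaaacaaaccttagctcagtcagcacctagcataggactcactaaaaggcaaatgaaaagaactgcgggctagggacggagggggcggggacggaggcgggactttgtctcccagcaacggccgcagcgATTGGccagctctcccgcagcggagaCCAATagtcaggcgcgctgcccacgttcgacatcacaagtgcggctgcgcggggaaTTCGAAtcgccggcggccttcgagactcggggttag
Anln: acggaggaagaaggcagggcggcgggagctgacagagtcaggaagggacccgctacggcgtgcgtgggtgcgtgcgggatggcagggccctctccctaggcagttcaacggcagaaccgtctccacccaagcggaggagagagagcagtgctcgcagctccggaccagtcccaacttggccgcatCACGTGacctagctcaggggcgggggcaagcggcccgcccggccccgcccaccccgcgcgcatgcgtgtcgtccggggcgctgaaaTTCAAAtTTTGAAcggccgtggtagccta
Mybl2: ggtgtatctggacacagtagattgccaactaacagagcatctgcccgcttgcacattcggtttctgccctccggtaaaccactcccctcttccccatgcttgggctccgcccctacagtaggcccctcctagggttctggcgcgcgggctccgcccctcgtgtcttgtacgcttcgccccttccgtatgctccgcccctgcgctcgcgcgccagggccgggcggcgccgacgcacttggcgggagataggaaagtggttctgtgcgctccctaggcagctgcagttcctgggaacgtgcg

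The 50 genes followed different courses in the arms. In GFP cells their median was lower on each later day up to day 8, while in 4F cells most lay near the level of uninfected MEFs, and the distance between the arms on day 8 came mainly from the GFP side. The median member lay 0.28 below day 0 in GFP cells on day 1, 0.32 below on day 3, 0.77 below on day 5 and 1.75 below on day 8. In 4F cells the median lay 0.19 above day 0 on day 1, 0.09 on day 2, 0.14 on day 3, 0.23 on day 4, 0.29 on day 5, 0.19 on day 6 and 0.02 on day 8. All comparisons with day 0 share the same 2 uninfected arrays. The 2 GFP arrays of day 8 stood apart from each other: replicate 1 was lower in 49 of 50 members, and the median difference, replicate 1 minus replicate 2, was -0.948.

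**Figure D1:**
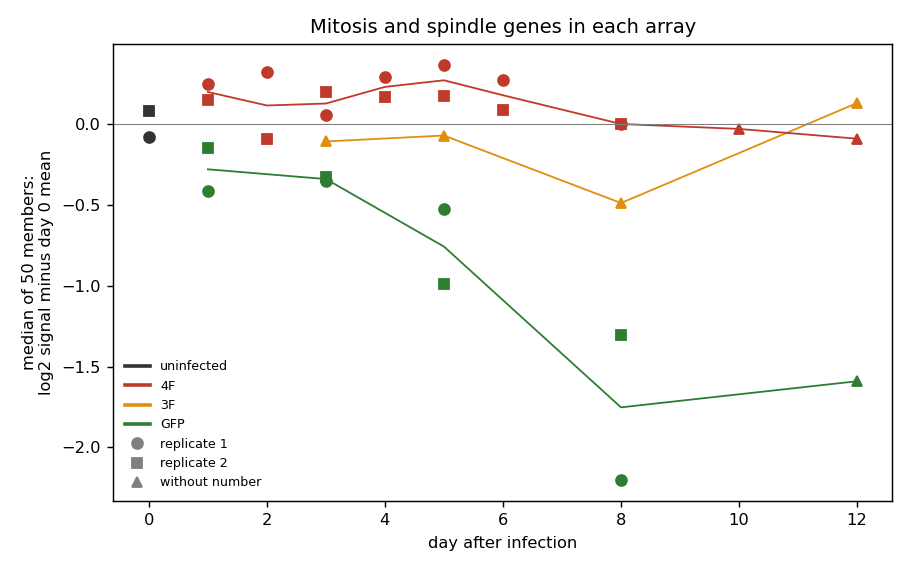
Median over the 50 genes of log2 signal minus the day 0 mean (y axis) against day after infection (x axis), with 1 point per array, marker shape for the set of arrays and lines through the mean of each arm and day. The GFP points fall to -2.20 and -1.30 on day 8 and -1.59 on day 12, while the 4F points lie between -0.09 and 0.37.

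Against GFP cells of the same day, 1 member was higher in 4F cells on day 1 (limma, adjusted p under 0.05 over all 19938 genes, where 1.42% of all genes were higher), 2 on day 3 (6.28%), 36 on day 5 (10.5%) and all 50 on day 8 (14.5%). Every called member was higher in 4F cells. The day 1 gene was Mybl2, which encodes B-Myb, higher by 0.96 (SE 0.19). On day 3 the 2 were Smc2, a condensin subunit (1.01, SE 0.25), and Mybl2 (0.63, SE 0.19). The median difference was 0.47 on day 1, 0.45 on day 3, 0.97 on day 5 (1.96-fold) and 1.78 on day 8 (3.44-fold), where it ran from 0.77 in Bub3 and Ndc80 to 2.58 in Ect2. Over all genes the median difference was within 0.03 of 0 on each of these days. Both 4F arrays lay above both GFP arrays in 44 members on day 1 (20.2% of all genes), 42 on day 3 (22.4%), 50 on day 5 (28.2%) and 50 on day 8 (24.5%).

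Within replicate 1 and within replicate 2 all 50 members had the higher value in 4F cells on day 8, with medians of 2.17 and 1.32. The 14 members not called on day 5 had differences between 0.45 (Prc1) and 0.98 (Ccnb2). Without 4F replicate 1 of day 5 the day 5 count was 15, and without GFP replicate 2 of day 5 it was 10. On day 1 leaving out any of the 4 arrays left 0, and on day 3 leaving out either 4F array left 0 and leaving out GFP replicate 1 left 1; with the set of arrays as a block the day 3 count was 6.

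**Figure D2:**
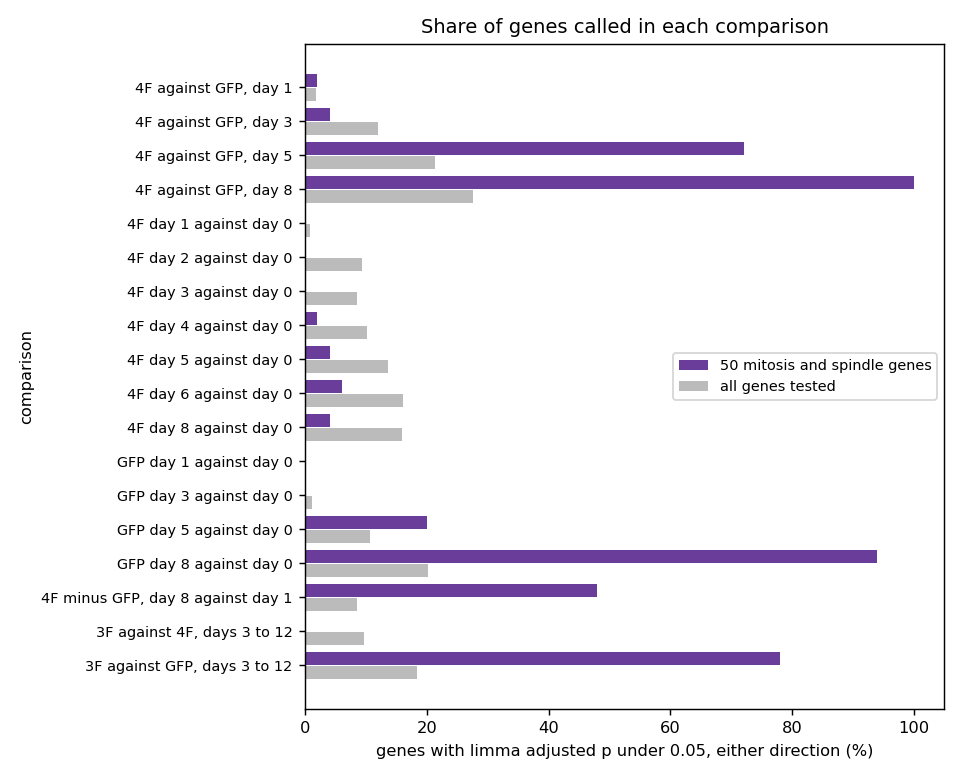
Share of genes with a limma adjusted p under 0.05 in either direction (x axis, %) for each comparison (y axis), for the 50 genes (purple) and for all 19938 genes (grey). The purple bar reaches 72% against 21.4% for 4F against GFP on day 5, 100% against 27.6% on day 8, and 94% for GFP on day 8 against day 0.

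In GFP cells no member was called against day 0 on day 1 or day 3 by limma, where 0.0903% and 1.05% of all genes were called in either direction. On these days 3 and 2 members had an unadjusted p under 0.05, for which the share of all genes is not given here. On day 5, 10 members fell (4.83% of all genes were lower), and on day 8, 47 fell (11.2%). The day 5 genes were Birc5 (-1.21, SE 0.25), Mybl2 (-1.18, SE 0.19), Anln (-1.39, SE 0.41), Smc2, Ncapg, Cdca8, Incenp, Ndc80, Nek2 and Ccnf. The 3 not called on day 8 were Cdc25b (-0.64, adjusted p = 0.056), Nusap1 (-0.88, adjusted p = 0.069) and Spc24 (-0.90, adjusted p = 0.076). The median fall on day 8 was 3.37-fold, and 45 of 50 members lay at least 1 below day 0. In all 50 the GFP mean was lower on day 8 than on day 5 and lower on day 5 than on day 3. The shares of all genes for these counts are not given here. Over all genes the median day 8 difference was 0.03 within replicate 1 and 0.01 within replicate 2.

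Both GFP arrays lay below both day 0 arrays in 25 members on day 1 (18.5% of all genes), 40 on day 3 (19.4%), 46 on day 5 (25.6%) and 50 on day 8 (24.9%). Within replicate 1 the day 8 median was -2.14, and within replicate 2 it was -1.40. The day 8 count was 40 without GFP replicate 1 and 48 without GFP replicate 2. The day 5 count was 1 without GFP replicate 2, 3 without either day 0 array, and 20 with the set of arrays as a block. On day 1 the block called 1 member, Mybl2 (-0.83 without the block, adjusted p = 0.12 there).

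In 4F cells the members were near day 0 throughout. No member was called on days 1, 2 or 3 by limma, where 0.838%, 9.35% and 8.53% of all genes were called in either direction. On these days 1, 4 and 3 members had an unadjusted p under 0.05, for which the share of all genes is not given here. On day 4, 1 member was higher (4.74% of all genes), on day 5, 2 (6.47%), on day 6, 3 (8.14%) and on day 8, 2 (7.39%). Every called member was higher. Each of these shares is below that of all genes. Members below day 0 numbered 4 on day 1, 17 on day 2, 16 on day 3, 8 on day 4, 11 on day 5 and 15 on day 6. On day 8, 28 members lay above day 0 and 22 below, and 42 were within 0.5 of it. In 49 of the 50, the GFP fall on day 8 was larger than the 4F change in either direction. The shares of all genes for this count and for the counts of members above, below or near day 0 are not given here.

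The members called above day 0 in 4F cells were Nusap1 on days 4, 5 and 6, Spc24 on days 5, 6 and 8, and Mybl2 on days 6 and 8. Nusap1, a microtubule-bundling protein of the spindle, read 6.79 and 7.39 on day 0 and 8.29 and 8.30 in 4F cells on day 4, 8.30 and 8.21 on day 5, 8.15 and 8.34 on day 6 and 7.47 and 8.33 on day 8. The 4F arrays of days 4 to 6 all lay above both day 0 arrays, by 1.2 on day 4 (SE 0.32, adjusted p = 0.025), 1.16 on day 5 and 1.15 on day 6. Spc24, a subunit of the Ndc80 complex that binds spindle microtubules, read 7.81 and 7.48 on day 0 and 9.03 and 8.52 on day 5, 9.02 and 8.46 on day 6 and 8.96 and 8.42 on day 8. Again no 4F array of these days reached down to the day 0 arrays, and the differences were 1.13, 1.09 and 1.04 (SE 0.34).

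Mybl2 read 8.14 and 8.11 on day 0. In 4F cells it read 8.49 and 8.57 on day 5, 8.72 and 8.75 on day 6, 8.84 and 9.29 on day 8, 9.45 on day 10 and 9.56 on day 12. It was higher by 0.61 on day 6 (SE 0.19, adjusted p = 0.041) and 0.94 on day 8 (adjusted p = 0.003). In GFP cells it read 7.32 and 7.28 on day 1, 8.01 and 7.76 on day 3, 7.21 and 6.69 on day 5, 6.87 and 6.55 on day 8 and 6.73 on day 12, below both day 0 arrays throughout. Foxm1, the forkhead factor that acts with B-Myb on late cell-cycle genes, read 7.87 and 8.01 on day 0, 7.61 and 7.36 in 4F cells on day 8, 7.18 on day 10 and 7.0 on day 12. Its 4F values after day 6 all lay below day 0, and the 4F minus day 0 difference on day 8 was not called.

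These few calls depend on the day 0 arrays. Without day 0 replicate 1 the count was 0 on days 4, 5 and 6 and 1 on day 8, and without day 0 replicate 2 it was 1 on days 5, 6 and 8. It was also 0 on day 4 without either 4F array of that day, 0 on day 5 without either 4F array, and 0 on day 6 without 4F replicate 1. The 4F medians differed between the sets of arrays. On day 2 the median was 0.38 within replicate 1 and -0.21 within replicate 2. In the same order it was 0.33 and 0.06 on day 1, 0.37 and 0.1 on day 4, 0.48 and 0.07 on day 5, and 0.11 and -0.04 on day 8.

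**Figure D3:**
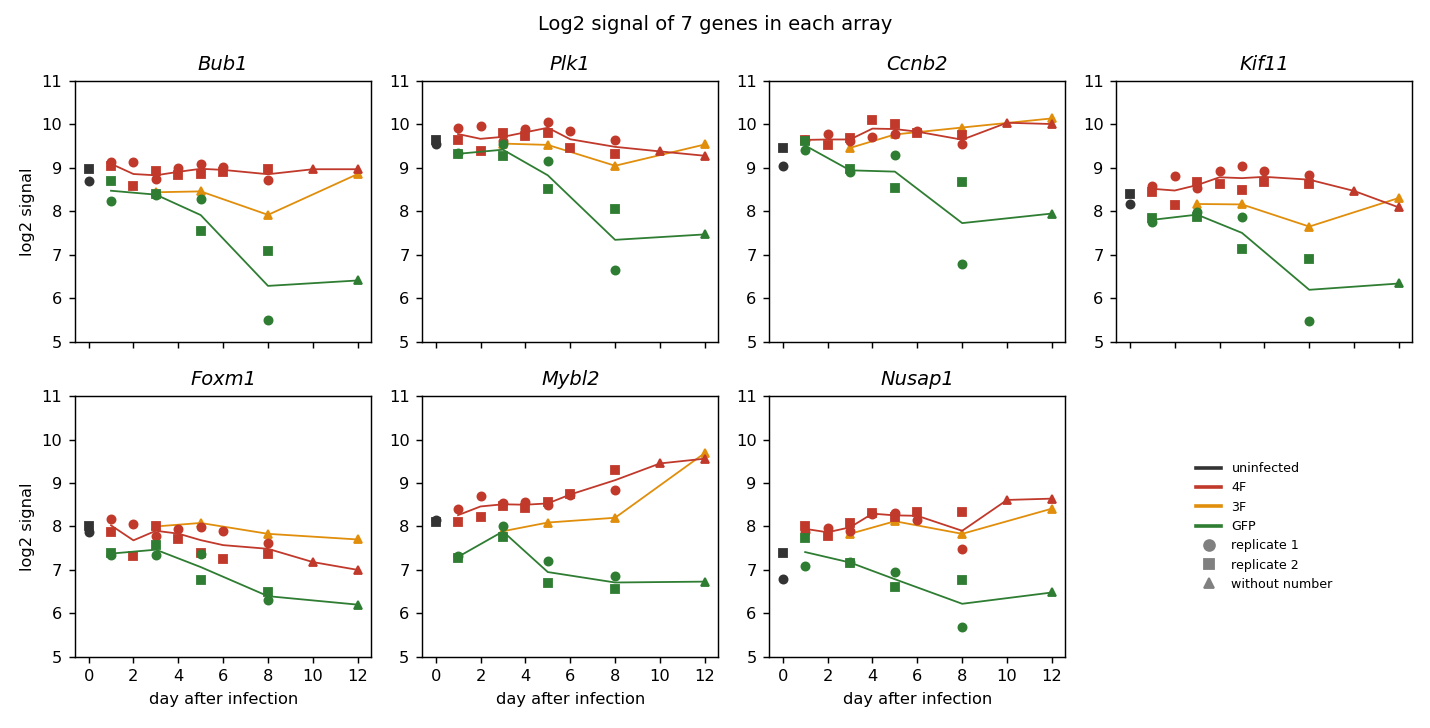
Log2 signal (y axis) of Bub1, Plk1, Ccnb2, Kif11, Foxm1, Mybl2 and Nusap1 in each array against day after infection (x axis), with colour for the arm, marker shape for the set of arrays and lines through arm means. In each panel the GFP points of day 8 lie below both day 0 points, and Mybl2 in 4F cells climbs to 9.56 on day 12.

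The day 8 values are given by role. Many GFP signals were low: 29 of the 50 members lay below the median of all genes (6.37) in GFP replicate 1 and 4 in replicate 2 (6.30), against 0 in each day 0 and each 4F array of day 8. Sizes of the day 8 differences are those of the measured signals. Across the 50 members, which share the same arrays, the day 0 level and the GFP day 8 difference from day 0 had r = -0.58, and the day 0 value enters both. Among the spindle checkpoint genes, Bub1, a kinase that recruits checkpoint proteins to unattached kinetochores, read 8.69 and 8.98 on day 0, 8.73 and 8.98 in 4F cells on day 8, and 5.49 and 7.08 in GFP cells on day 8. The 4F arrays lay at the level of the day 0 arrays and both GFP arrays far below it. The 4F minus GFP difference was 2.57 (SE 0.36, adjusted p = 7.5e-05). The kinase Ttk (Mps1) read 7.51 and 7.61 on day 0, 7.55 and 7.47 in 4F cells and 5.63 and 6.20 in GFP cells. Mad2l1, which inhibits Cdc20 while chromosomes are unattached, read 9.73 and 10.07, then 9.69 and 10.14 in 4F cells and 7.52 and 8.65 in GFP cells. In both genes the 4F and day 0 arrays lay close together and the GFP arrays lay below. The differences between arms were 1.60 in Ttk, 1.83 in Mad2l1, 2.38 in Bub1b and 0.77 in Bub3, an adaptor of both Bub kinases.

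Among the mitotic kinases, Plk1, which acts from centrosome maturation to cytokinesis, read 9.56 and 9.64 on day 0, 9.64 and 9.33 in 4F cells on day 8 and 6.64 and 8.05 in GFP cells on day 8. Aurka, the Aurora kinase of the spindle poles, read 8.82 and 8.96, then 8.99 and 9.25 in 4F cells and 6.16 and 7.23 in GFP cells. Aurkb, the kinase of the chromosomal passenger complex, read 8.78 and 8.70, then 9.38 and 9.13 in 4F cells and 6.76 and 7.47 in GFP cells. In both Aurora kinases the 4F arrays lay above both day 0 arrays, but neither was called against day 0 on day 8. Differences between arms were 2.43 in Aurka, 2.14 in Aurkb, 2.14 in Plk1, 1.78 in Melk and 1.76 in Nek2, a kinase of centrosome separation. Plk4, which starts centriole duplication, differed by 0.78 (SE 0.26, adjusted p = 0.037).

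The regulators of mitotic entry and exit were all higher in 4F than in GFP cells on day 8. Ccnb2, cyclin B2, read 9.04 and 9.47 on day 0, 9.54 and 9.76 in 4F cells on day 8 and 6.79 and 8.67 in GFP cells on day 8. Cdc20, the activator of the anaphase-promoting complex, read 8.72 and 8.70, then 9.28 and 8.79 in 4F cells and 6.56 and 7.24 in GFP cells. Both 4F arrays of each gene lay above both day 0 arrays, and the GFP arrays below. Pttg1 (securin) read 7.63 and 7.38, then 7.90 and 7.77 in 4F cells and 5.81 and 6.58 in GFP cells. Espl1 (separase, which cleaves cohesin at anaphase) read 7.5 and 7.44, then 7.77 and 7.20 and 5.95 and 6.36. Securin thus lay above both day 0 arrays in 4F cells, while separase lay on either side of them. Differences between arms were 2.13 in Cdc20, 2.01 in Ccnf, 1.96 in Ube2c, the ubiquitin-conjugating enzyme of the complex, 1.92 in Ccnb2, 1.64 in Pttg1, 1.33 in Espl1, and 1.27 and 1.00 in the Cdk1-activating phosphatases Cdc25c and Cdc25b.

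The centromere and kinetochore genes had a median of -1.37 in GFP cells on day 8 against day 0. Cenpa, the histone that marks centromeres, read 9.01 and 9.03 on day 0, 9.65 and 9.34 in 4F cells on day 8 and 7.22 and 8.02 in GFP cells on day 8. Ndc80 read 7.54 and 7.62, then 7.22 and 7.26 in 4F cells and 6.15 and 6.80 in GFP cells. The 4F arrays lay above both day 0 arrays for Cenpa and below both for Ndc80, and neither difference from day 0 was called. Within the 4 measured subunits of the Ndc80 complex the arms differed by 1.94 in Spc24, 1.46 in Nuf2, 1.04 in Spc25 and 0.77 in Ndc80. The values were 1.88 in Cenpa, 1.42 in the motor Cenpe, 1.24 in Cenpf and 1.12 in Cenpk. In the passenger complex, which corrects faulty attachments, they were 2.06 in Cdca8 (borealin), 1.58 in Incenp and 1.46 in Birc5 (survivin). Birc5 read 8.32 and 8.36 on day 0, 8.21 and 7.93 in 4F cells and 6.49 and 6.73 in GFP cells, so all 4 day 8 arrays lay below day 0.

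Among spindle motors and microtubule proteins, Kif11, the kinesin that pushes the poles apart, read 8.18 and 8.39 on day 0, 8.84 and 8.62 in 4F cells on day 8 and 5.48 and 6.91 in GFP cells on day 8. Kif20a, a kinesin of the central spindle, read 8.92 and 9.33, then 8.71 and 8.76 in 4F cells and 6.5 and 7.93 in GFP cells. Tpx2, which activates Aurka on the spindle, read 9.41 and 9.95, then 9.15 and 9.47 and 6.63 and 8.37. The 4F arrays lay above both day 0 arrays for Kif11, below both for Kif20a, and overlapped them for Tpx2, while the GFP arrays were lowest in each. Differences between arms were 2.54 in Kif11, 2.12 in the microtubule depolymerase Kif2c, 2.04 in Kif15, 1.81 in Tpx2, 1.79 in Prc1, 1.73 in Kif23, 1.71 in Kif4, 1.69 in Nusap1, 1.52 in Kif20a and 1.37 in Aspm.

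Of the chromosome genes, Top2a, the topoisomerase that untangles sister chromatids, read 9.58 and 9.82 on day 0, 9.63 and 9.88 in 4F cells on day 8 and 6.81 and 8.40 in GFP cells on day 8. Mki67, the Ki-67 protein that coats mitotic chromosomes and is a common marker of cycling cells, read 9.0 and 9.08, then 9.43 and 9.04 in 4F cells and 6.18 and 7.62 in GFP cells. Both genes had 4F arrays close to the day 0 arrays and GFP arrays well below. The condensin genes differed between arms by 2.53 in Ncapg, 1.97 in Ncapd2, 1.72 in Smc2 and 1.03 in Smc4, beside 2.34 in Mki67 and 2.15 in Top2a.

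The 2 cytokinesis genes had a median of -2.59 in GFP cells on day 8 against day 0. Anln, the scaffold of the contractile ring, read 9.62 and 9.89 on day 0, 8.71 and 9.23 in 4F cells on day 8 and 6.04 and 7.90 in GFP cells on day 8. Its GFP difference from day 0 was -2.78 (SE 0.41, adjusted p = 0.0002), and its 4F arrays also lay below both day 0 arrays (-0.79, not called). Ect2, which activates the GTPase RhoA at the division plane, read 9.05 and 9.58, then 9.29 and 9.71 in 4F cells and 6.35 and 7.50 in GFP cells. Its 4F arrays overlapped day 0, and its difference between arms was 2.58 (SE 0.32, adjusted p = 2.4e-05). The transcription factors differed by 2.36 in Mybl2 (SE 0.19, adjusted p = 5.5e-07) and 1.09 in Foxm1.

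**Figure D4:**
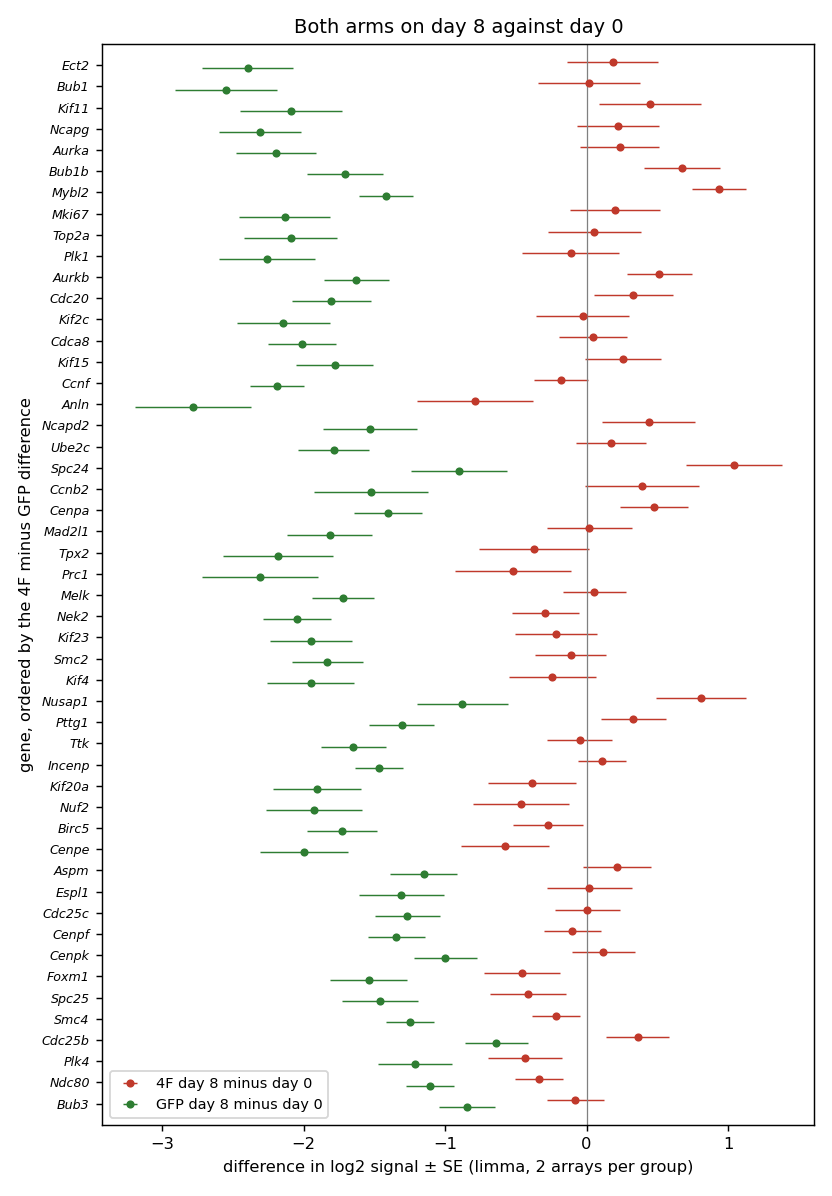
Difference from day 0 in log2 signal (x axis, points with SE from limma, 2 arrays per group) for each of the 50 genes (y axis, ordered by the 4F minus GFP difference), in 4F cells (red) and GFP cells (green) on day 8. The red points spread around 0 between -0.79 and 1.04, and the green points lie between -2.78 and -0.64.

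The arm difference itself was larger on day 8 than on day 1 in 24 members (limma interaction, adjusted p under 0.05, against 3.92% of all genes in that direction). The median change was 1.29, with 1.67 within replicate 1 and 0.99 within replicate 2. The largest were Bub1 (1.95, SE 0.51), Ncapg (1.94, SE 0.40) and Ect2 (1.92, SE 0.45). Foxm1 had the smallest, 0.44 (adjusted p = 0.64). The count was 13 without 4F replicate 1 of day 1, 9 without 4F replicate 2 of day 1, 11 without GFP replicate 2 of day 1, 12 without GFP replicate 1 of day 8 and 42 without GFP replicate 2 of day 8.

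Single arrays carry no test and are given against the day 0 mean. On day 12 the GFP array lay at least 1 below day 0 in 46 of 50 members (4.46% of all genes), with a median of -1.59. The 4F arrays of days 10 and 12 had medians of -0.03 and -0.09, and no member was lower by 1. In each of them Mybl2 and Nusap1 were the 2 members higher by at least 1 (4.26% and 4.67% of all genes), Mybl2 by 1.32 and 1.43 and Nusap1 by 1.52 and 1.55. The lowest were Foxm1 on day 10 (-0.76) and on day 12 (-0.94).

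In cells given 3 factors without c-Myc, most members lay between the GFP and 4F means up to day 8. They numbered 39 on day 3, 43 on day 5 and 46 on day 8, but 14 on day 12. The share of all genes in this order was not counted. On days 3, 5 and 8 only the 3F arrays lack a replicate number, so arm and set of arrays cannot be told apart. On day 12, where no array has a replicate number, 36 members lay above the 4F array. Their median against day 0 was -0.11 on day 3, -0.07 on day 5, -0.49 on day 8 and 0.13 on day 12. The 3F array lay above the GFP mean in 45 members on day 3 and in all 50 on days 5, 8 and 12, and below the 4F mean in 44, 43, 46 and 14. On day 8, 1 member was lower by at least 1 (Cenpe, -1.23, against 2.26% of all genes), and on day 12, 2 were higher by at least 1 (Mybl2 by 1.56 and Nusap1 by 1.32, against 4.49%). On day 5 the member higher by at least 1 was Nusap1 (1.02, against 3.19%). Bub1 read 8.44 on day 3, 8.46 on day 5, 7.92 on day 8 and 8.86 on day 12 in 3F cells, so its day 8 array was the lowest of the 4. Mybl2 read 7.89, 8.09, 8.20 and 9.69 on the same days, and only the last lay above the 4F array of its day. Kif11 read 8.17, 8.16, 7.65 and 8.31.

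In a model with day and arm as additive terms, over the 18 arrays of days 3, 5, 8 and 12, 39 members were higher in 3F than in GFP cells (limma, adjusted p under 0.05, against 9.47% of all genes), with a median of 0.91. The largest were Anln (1.61, SE 0.36), Ect2 (1.54, SE 0.32) and Mki67 (1.51, SE 0.29). By day, the median 3F minus GFP difference was 0.17, 0.65, 1.35 and 1.68. On days 3, 5 and 8 the 3F arrays belong to another set than the GFP arrays, so arm and set cannot be told apart there. With the set of arrays as a block the count was 24 and the median 1.5. In that fit only the day 12 arrays separate arm from set, so it is no estimate for each of the days. Without the block, the count was 20 without the 3F array of day 8, 16 without that of day 12 and 23 without the GFP array of day 12.

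Against 4F cells no member was called by limma in either direction (9.63% of all genes were). An unadjusted limma p under 0.05 was found in 4: Spc24 (-0.69, SE 0.24, adjusted p = 0.091), Espl1 (-0.53), Cdc25b (-0.33) and Foxm1 (0.38). That is a smaller share than the 9.63% of all genes that passed the stricter adjusted threshold. The median over all members was -0.18, and by day it was -0.19, -0.31, -0.43 and 0.13. All 3F arrays belong to the set without a replicate number, so on days 3, 5 and 8 the arm and the set cannot be told apart, and with the set as a block the median was 0.40 and again 0 were called. A missed threshold with 1 array per day does not show that the arms are alike.

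**Figure D5:**
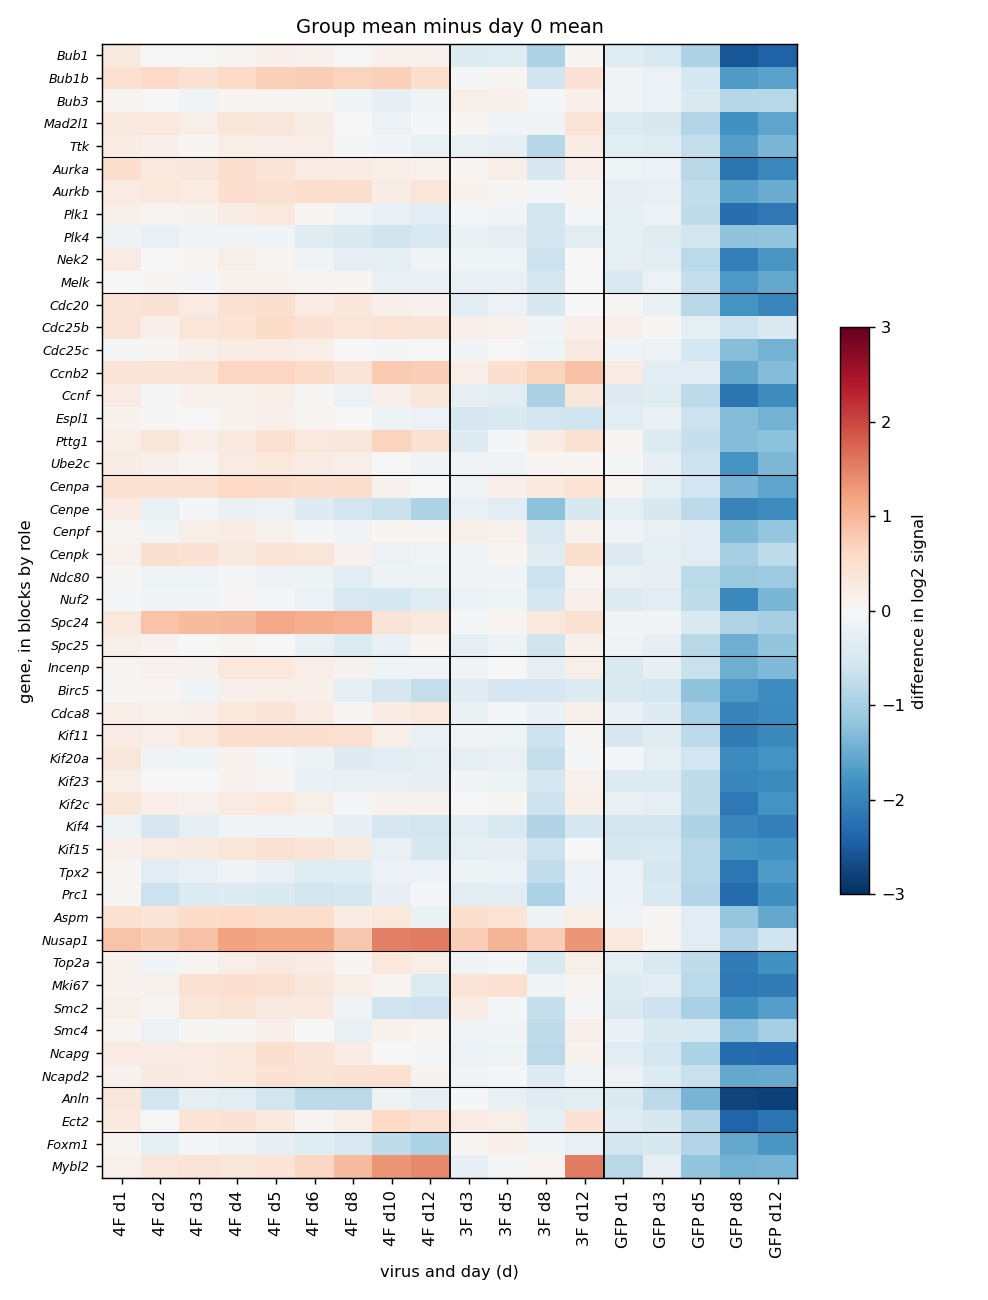
Group mean minus day 0 mean in log2 signal (colour, from -3 in blue to 3 in red) for the 50 genes (rows, in blocks by role) in each virus and day (columns). The GFP columns of days 8 and 12 are blue in every row, with values down to -2.79, while the 4F columns run from -0.94 to 1.55.

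Other cell-cycle genes, from lists written with earlier results of these data known, are counted on day 8 beside the share of all genes, which was 14.5% higher and 13% lower for 4F against GFP. Of 56 other mitotic genes, 54 were higher in 4F than in GFP cells, with a median of 1.56, and 53 fell in GFP cells against day 0 (11.2% of all genes). They included Cdk1, the catalytic partner of cyclin B (1.79, SE 0.25), Ccna2, cyclin A2 (2.38), Ncapg2 of the second condensin complex (2.38), and Fbxo5, an inhibitor of the anaphase-promoting complex (2.45). Ccnb1 was not analysed here, because no row carries its symbol alone. All 28 DNA replication genes were higher, with a median of 1.81, led by the helicase subunits Mcm7 (2.39) and Mcm5 (2.31), and all 28 fell in GFP cells. Of 13 subunits and partners of the anaphase-promoting complex, 1 was higher (Fzr1, 0.56), a share below that of all genes, and 3 were lower (Cdc16 by -0.75, Anapc4 by -0.62 and Anapc2), with a median of 0.07.

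Of 19 E2F, pocket protein and MuvB genes, 12 were higher and 1 lower in 4F than in GFP cells on day 8 (14.5% and 13% of all genes), with a median of 0.54. Rb1, the retinoblastoma protein, was higher by 2.20 (SE 0.21) and Mybl1 by 1.38, while Rbl2, the pocket protein p130 of resting cells, was lower by 0.74 (log2 difference -0.74, SE 0.18). Unlike most members, Rb1 differed through a rise in 4F cells, by 2.36 against day 0 on day 8. It read 6.54 and 6.68 on day 0, 6.57 and 6.97 in GFP cells on day 8 and 8.64 and 9.29 in 4F cells on day 8. Of 13 CDK inhibitors and p53 targets, 1 was higher (Sesn2, 1.09), a share below that of all genes, and 2 were lower, a share near it: Cdkn2b, which encodes p15 (-2.24), and Cdkn1c, which encodes p57 (-1.74). Against day 0, 6 of the 13 rose in GFP cells on day 8 (8.92% of all genes), among them Cdkn1c (2.71), Gadd45a (1.54) and Cdkn2a (1.17). In 4F cells 3 of the 13 rose (7.39% of all genes), Cdkn2a by 1.2, Sesn1 by 0.85 and Cdkn1b by 0.65, and Cdkn2b fell (-1.08, against 8.51% of all genes). Both comparisons share the day 0 arrays. Cdkn1a and Bax were also on this list but were not analysed here, because no row carries either symbol alone.

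Most fibroblast markers were higher in GFP cells, where the mitotic genes were lower. The summed linear signal of 10 fibroblast markers was 26697 to 27369 in the day 0 arrays, 67672 to 79794 in GFP arrays of days 8 and 12, 15155 to 19174 in 4F arrays of days 8 to 12 and 28684 to 36142 in 3F arrays, and on day 8, 9 of 10 were lower in 4F than in GFP cells (13% of all genes). The markers did not all move together. Against day 0, 7 of the 10 rose in GFP cells on day 8 (8.92% of all genes), led by Lum (6.63) and Dcn (4.30). Thy1 (-0.69) and Vim (-0.33) lay lower there and were not called. In 4F cells on day 8, 5 fell (8.51% of all genes), led by Thy1 (-2.44), Pdgfrb (-2.13) and Postn (-1.69). Lum rose in them (2.11, limma adjusted p = 0.032, against 7.39% of all genes). Vim, the mesenchymal intermediate filament, averaged 13.26 on day 0, while Lum, a proteoglycan, averaged 5.77 there, near the low end of the scale. The summed signal of 5 pluripotent markers was 226 to 229 on day 0, 216 to 267 in GFP arrays of days 8 and 12 and 750 to 3983 in 4F arrays of days 8 to 12. It reached 3283 in 3F arrays. The 8 macrophage markers summed to between 335 and 896 and the 5 endothelial markers to between 178 and 270 in any array, and Ptprc, Adgre1 and Emcn were near the bottom of the scale. Of the macrophage markers, Lyz2 (-1.87) and Cd14 (-1.51) were lower in 4F than in GFP cells on day 8, and Cd14 rose in GFP cells against day 0 (1.33). Cd68, a lysosomal protein, read 6.85 and 6.52 on day 0 and 8.89 and 9.17 in the 4F arrays of days 10 and 12. Of the endothelial markers, Kdr and Emcn fell against day 0 on day 8 in GFP cells (-0.92 and -0.71) and in 4F cells (-1.17 and -0.92). The 5 epithelial markers summed to 364 to 426 on day 0 and up to 4584 in 4F arrays of days 8 to 12. The part of these changes in the mitotic gene differences was not tested.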

How the data were processed

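Total RNA of mouse embryonic fibroblasts was hybridised to Affymetrix whole-transcript arrays, labelled from 120 ng (replicate 1) or 300 ng (all others) per the labels' protocols. The authors deposited log2 signals for 28853 rows in 31 arrays (4.27 to 14.3, array medians 6.04 to 6.17); the background correction and normalization are not given in the sources used here. Rows with a single gene symbol (21789) gave 19938 genes; 1621 rows with several symbols and 5443 with none were not used. No 2 arrays were identical, and replicates correlated at 0.974 to 0.993 across genes. The number of arrays limits the precision.

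The members and lists were chosen with earlier results of these data known. Groups were compared with limma 3.58.1 (R 4.3.3, lmFit and eBayes) on the deposited log2 values, with Benjamini-Hochberg adjustment over all 19938 genes at 0.05. The model had 1 mean per group over 31 arrays (12 residual degrees of freedom). Single-array groups entered only the values and, for 3F and for day 12, a model with day and arm as additive terms over 18 arrays (12 residual degrees of freedom). The single 4F and GFP arrays of day 12 were thus in this model. In it the spread also holds changes of the arm difference over days. Promoters were searched with Python 3.11.15. The fits were tested on simulated data with independent noise in each array. The simulation held no shared deviation of same-numbered arrays, so it does not cover that feature of the data.

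Replicate numbers were checked as pairs. The labels tie replicate 1 to its own RNA amount, and same-numbered arrays of different groups deviated together from their group means (66 pairs of groups, correlation 0.081 to 0.69, median 0.32, 65 over 0.1). The set of arrays (replicate 1, replicate 2, no number) was therefore fitted as a block as an alternative, beside quantile normalization, a filter on dim probe sets (log2 signal above 7 in at least 2 arrays, which all 50 members and 9595 genes passed), the mean of a gene's rows, an intensity trend with robust moderation, and leaving out each array. The filter reads the arrays being compared, so a gene can pass through the arm where it is high. Cenpk passed only through 4F replicate 1 of day 2 (7.25) and day 5 (7.09) and 3F of day 12 (7.01).

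All members could be named. Values in single arrays were given for chosen genes of each role, mostly those of day 0 and day 8. The largest called changes were named for most comparisons, as were members that differ in sign from most. For other lists, counts, medians and the largest called changes were given, mainly in 4F against GFP on day 8.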

Additional observations from a re-analysis of the deposited data

Results flagged for a closer look

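The difference between 4F and GFP cells changed between day 1 and day 8 in 24 members, by the limma interaction contrast (3.92% of all genes in that direction). Leaving out 1 array at a time, this count ranged from 9 to 42. The change was 1.95 in Bub1, 1.94 in Ncapg and 1.92 in Ect2 on the log2 scale, each larger on day 8. The change was above 0 in all 50 members within each of the 2 replicate sets, where its median over all genes was -0.01 and 0.02.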

How the results depend on the processing

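For the counts of called members, the alternatives that moved a count by more than 1.5 times were the block, the filter on dim probe sets and, for single arrays, the choice of day 0 array. With the replicate block (the set of arrays), 4F against GFP on day 3 gave 6, 4F against day 0 gave 1 on day 2, 2 on day 3 and 2 on day 4, GFP against day 0 gave 1 on day 1 and 20 on day 5, and 3F against GFP gave 24; the pairing changed no other count by that much. With the filter, 4F against GFP on day 3 gave 5, GFP on day 5 against day 0 gave 21 and 3F against 4F gave 1 (lower). Genes can pass this filter through the arm where they are high, so these counts are no independent check. With day 0 replicate 2 alone as the reference, 5 members lay at least 1 lower in the 3F array of day 8 and 2 in the 4F array of day 12. The cause was not tested. Leaving out 1 array at a time, the counts for 4F against GFP ranged from 0 to 0 on day 1, 0 to 2 on day 3, 10 to 33 on day 5 and 47 to 50 on day 8. For 4F against day 0 they ranged from 0 to 1 on day 4, 0 to 1 on day 5, 0 to 2 on day 6 and 1 to 2 on day 8, and were 0 on days 1 to 3. For GFP against day 0 they ranged from 1 to 11 on day 5 and 40 to 48 on day 8, for the change of the arm difference from 9 to 42, for 3F against 4F from 0 to 1 (1 without the 3F array of day 12) and for 3F against GFP from 16 to 44. Of 2322 recomputed values of the 217 called member differences, none changed sign, and 325 lost the threshold, 302 of them when 1 array was left out, which leaves fewer arrays in the fit. With 1 or 2 arrays per group, differences of the size seen on days 1 and 3 are mostly below what these fits call.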
